A study of Homo sapiens with 24 samples.

Results

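The genes described here encode 10 proteins that move calcium or read it: the pumps ATP2A2, ATP2B1 and ATP2B4, the store-operated entry pair STIM1 and ORAI1, the release channels ITPR1 and ITPR3, the exchangers SLC8A1 and SLC8B1, and PPP3CA, a catalytic subunit of calcineurin. They were taken by gene symbol from the 60660 features of the deposited expression tables, and each symbol matched 1 row. Cells keep cytosolic calcium low by pumping it into the endoplasmic reticulum and out across the plasma membrane, where sodium-calcium exchangers also carry it. Inositol trisphosphate opens receptors that release the stored calcium, and STIM1 senses the emptied store and opens ORAI1 in the plasma membrane. Calcineurin is a phosphatase that calcium and calmodulin activate, and it sends NFAT transcription factors to the nucleus. TRPM4, the channel named in the study's title, is opened by cytosolic calcium and passes sodium.

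PC3 is an androgen-independent human prostate cancer cell line and LNCaP is an androgen-responsive one. Acetalax (oxyphenisatin acetate) is a former laxative. For each line there were 4 groups of 3 libraries: untreated parental cells, parental cells given 10 µM Acetalax for 4 h, untreated chronic-exposure (CE) cells, and CE cells given the same dose for the same time. The CE cells were resistant derivatives raised by passaging the parental line in rising drug concentrations, and they were kept without drug before RNA was taken. Whether each CE population came from 1 clone or a pool is not given in the sources used here. The lines were grown in different media, so line and medium cannot be told apart in any comparison between PC3 and LNCaP. The labels number the libraries of a group as replicates without naming separate cultures, so the p-values measure the spread between these libraries, which may be technical.

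The 24 libraries held 40160832 to 57728014 expected counts. The parental lines expressed epithelial markers, with 8 markers summing to 6704 to 7690 TPM (transcript abundance scaled for length and depth) in PC3 controls and 1270 to 1556 TPM in LNCaP controls. In the libraries labelled CE these markers were far lower: the same sum was 25.7 to 27.1 TPM in PC3 CE controls and 7.18 to 9.05 TPM in LNCaP CE controls. Of the 8 markers, 5 had a mean of at least 1 TPM in PC3 CE controls and 1 in LNCaP CE controls. The 7 prostate luminal markers summed to 4967 to 7788 TPM in LNCaP parental controls and to 4.83 to 7.76 TPM in LNCaP CE controls. In PC3 their sum was low in both, at 33.34 to 38.55 TPM in parental controls and 32.73 to 52 TPM in CE controls. The 6 fibroblast markers summed to 2996 to 3003 TPM in PC3 CE and 983.8 to 1045 TPM in LNCaP CE controls against at most 39.1 TPM in parental controls. The melanocyte gene TYRP1 stood at 380 TPM in PC3 CE controls, where SOX10, TYR and MLANA were at 0. Endothelial markers summed to at most 6.78 TPM and immune markers to at most 41.8 TPM in any library. The 5 neuronal and neuroendocrine markers summed to 18.0 to 289 TPM over all libraries. Group means of log2(TPM + 1) correlated at r = 0.969 between the CE controls of the 2 lines, and at 0.873 (PC3) and 0.882 (LNCaP) between the CE and parental controls of 1 line. Every comparison of CE with parental cells below, including that of their responses, therefore sets libraries together that differ in cell identity as well as in drug history. The part of either in such a result cannot be told apart. In bulk RNA, fewer cells of a type and less RNA per cell cannot be told apart either. Among the replicates, 3 libraries stood apart. LNCaP parental control 2 and Acetalax 3 held VEGFA at 53.9 and 76.3 TPM against 513 to 746 TPM in the other 4 LNCaP parental libraries, and PC3 CE Acetalax 1 held the stress gene DDIT3 at 936 TPM against 22.7 and 43.0 TPM in its replicates.

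Across the 8 groups PPP3CA varied most, with a standard deviation (SD) of 2.89 in log2(TPM + 1) over the group means, followed by ITPR3 at 1.66, SLC8A1 at 1.58 and SLC8B1 at 1.30. ORAI1 varied least, at 0.19, and ATP2A2 came next at 0.32. ATP2A2, the endoplasmic reticulum pump SERCA2, had the highest TPM of the members in every group except the LNCaP parental ones, where PPP3CA exceeded it. SLC8A1 was under 0.1 TPM in every parental library.

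**Figure D1:**
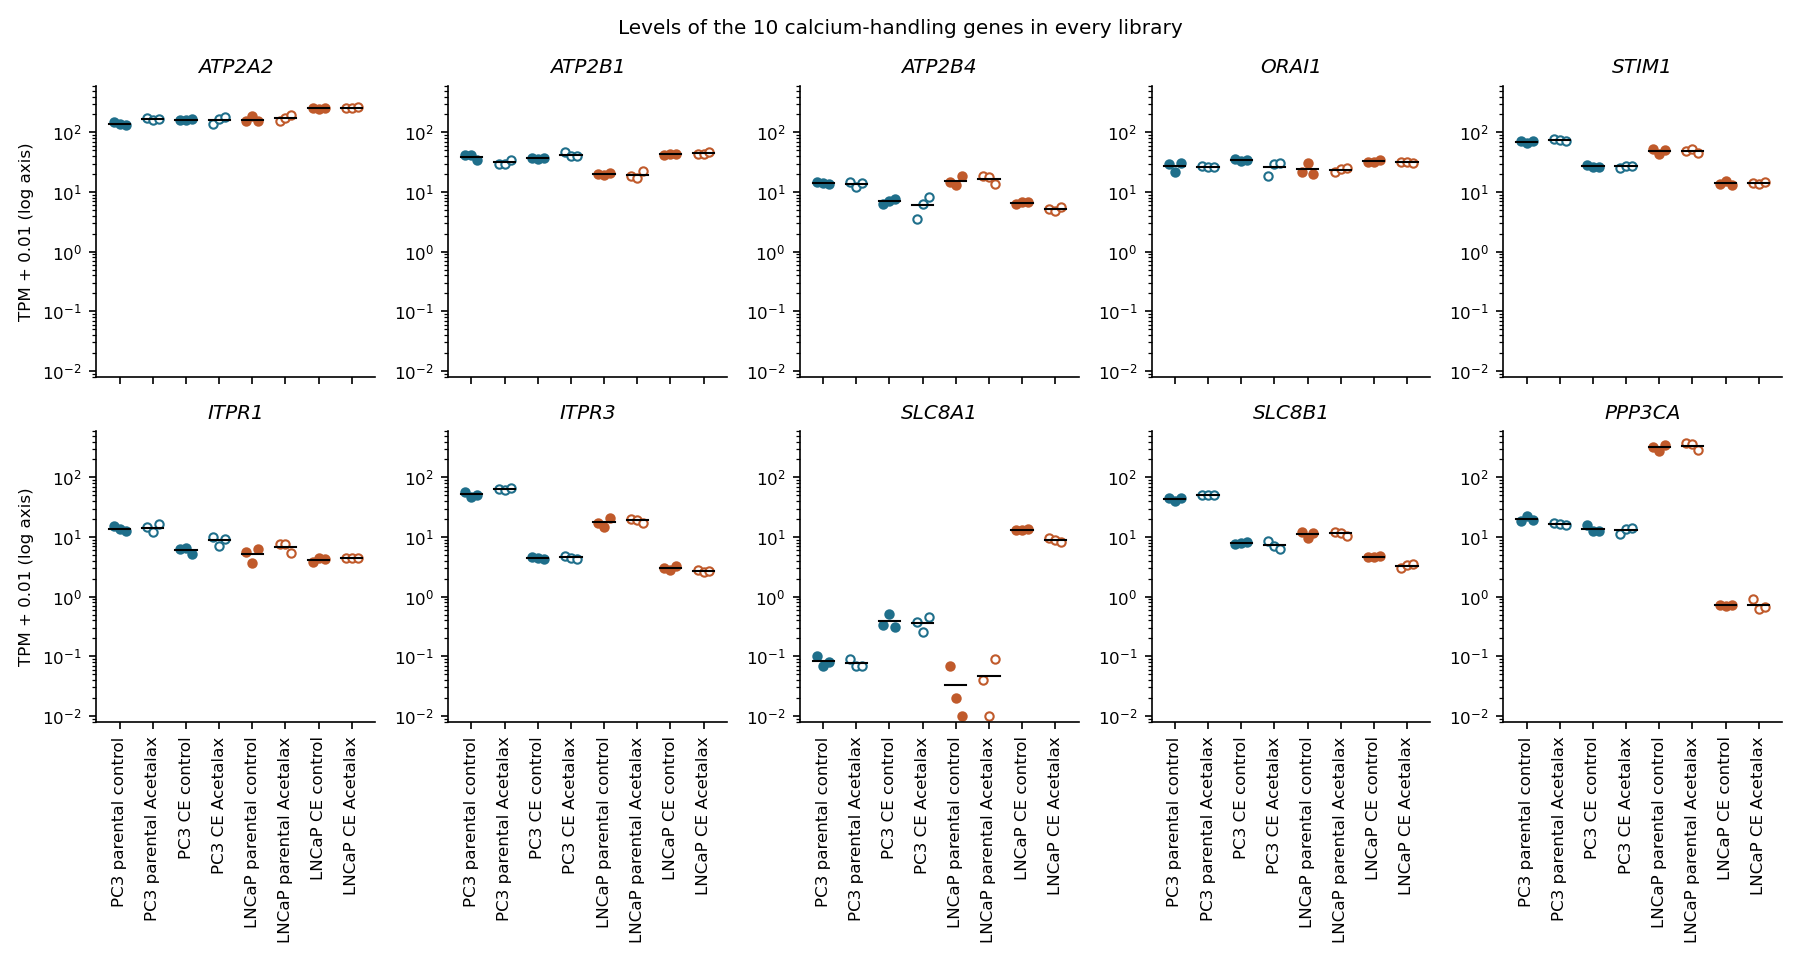
TPM plus 0.01 on a log axis for each of the 10 genes. Points are single libraries in the 8 groups (blue PC3, orange LNCaP, filled control, open Acetalax) and black bars are group means. PPP3CA spans 318 TPM in LNCaP parental controls to 0.703 TPM in LNCaP CE controls, and SLC8A1 stands at 13.3 TPM in LNCaP CE controls and 8.98 TPM in LNCaP CE Acetalax libraries.

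The upstream sequences of 4 genes are shown, picked after the values were seen as the genes in the promoter table with the largest CE changes of 1 direction in both lines, given in the next paragraphs: ITPR3, STIM1 and SLC8B1 were lower and SLC8A1 was higher. ATP2B4, also lower in both lines but by less, is not shown, and its window had a GC content of 55.6%. Each run is the 250 bases before the RefSeq gene start on GRCh38.p14, read 5′ to 3′ on the gene's strand, with matches to the SP1 box GGGCGG on either strand in capitals, overlapping matches included. GENCODE 29 places the ITPR3 gene at chr6:33620365-33696574, STIM1 at chr11:3854527-4093210, SLC8B1 at chr12:113298759-113359493 and SLC8A1 at chr2:40097270-40611053, so each window falls inside the gene's longest annotated span and belongs to the RefSeq start alone. The windows lie at chr6:33621072-33621321 on the plus strand (ITPR3), chr11:3855414-3855663 on the plus strand (STIM1), chr12:113335110-113335359 on the minus strand (SLC8B1) and chr2:40512436-40512685 on the minus strand (SLC8A1).
ITPR3: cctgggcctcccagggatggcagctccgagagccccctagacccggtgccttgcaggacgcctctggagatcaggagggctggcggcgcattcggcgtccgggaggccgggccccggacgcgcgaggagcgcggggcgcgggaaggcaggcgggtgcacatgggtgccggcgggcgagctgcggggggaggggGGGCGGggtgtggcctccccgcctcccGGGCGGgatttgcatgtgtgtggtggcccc
STIM1: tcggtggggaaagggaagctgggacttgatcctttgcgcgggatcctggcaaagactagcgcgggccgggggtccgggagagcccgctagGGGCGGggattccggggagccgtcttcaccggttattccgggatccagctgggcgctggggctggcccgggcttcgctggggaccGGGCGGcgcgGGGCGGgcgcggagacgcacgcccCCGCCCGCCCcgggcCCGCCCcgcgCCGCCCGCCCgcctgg
SLC8B1: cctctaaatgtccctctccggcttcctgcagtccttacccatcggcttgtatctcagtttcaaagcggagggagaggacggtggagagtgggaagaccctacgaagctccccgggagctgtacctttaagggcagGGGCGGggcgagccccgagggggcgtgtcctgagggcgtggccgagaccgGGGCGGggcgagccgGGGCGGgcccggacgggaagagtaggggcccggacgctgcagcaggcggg
SLC8A1: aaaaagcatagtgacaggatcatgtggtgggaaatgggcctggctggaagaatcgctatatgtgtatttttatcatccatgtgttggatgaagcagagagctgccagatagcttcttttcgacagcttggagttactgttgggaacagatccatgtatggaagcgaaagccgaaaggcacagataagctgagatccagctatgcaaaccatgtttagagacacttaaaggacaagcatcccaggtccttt

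The box matched 2 times in ITPR3, 8 times in STIM1 and 3 times in SLC8B1, and it was not found in this window of SLC8A1. Of 27305 promoter windows of the same length, 42.3% held it. Promoters of 8 members were in the table, and ATP2B1 held 2 matches and ATP2B4 held 1. The ATP2A2 and ITPR1 windows held none. PPP3CA and ORAI1 were not matched. The lowest GC content was that of SLC8A1 at 44.8% and the highest that of STIM1 at 77.2%, with ITPR3 at 76.8% and SLC8B1 at 68.8%, against a median of 58.0% over all windows. The NFAT core GGAAA, found in 56% of all windows on either strand, was in the windows of ATP2B1, ATP2B4, STIM1 and SLC8A1.

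The first comparison asked what differed between untreated CE and untreated parental cells of each line. In both lines CE cells had less mRNA for the release channel ITPR3, the store sensor STIM1, the mitochondrial exchanger SLC8B1, the plasma membrane pump ATP2B4 and calcineurin's PPP3CA, and more for the plasma membrane exchanger SLC8A1. The largest fitted differences were in LNCaP, where PPP3CA was 461-fold lower and SLC8A1 was 329-fold higher in CE cells. By edgeR's quasi-likelihood test with Benjamini-Hochberg adjustment over all genes tested, 7 of the 10 genes passed an adjusted p of 0.05 in PC3, 1 higher and 6 lower, where 77.5% of 20049 genes passed. In LNCaP 9 of the 10 passed, 4 higher and 5 lower, where 75.3% of 19393 genes passed. These shares are close to the background, so the number of calls says little about the 10 genes, and their sizes and directions are given instead. Of the 10 genes, 5 were lower in both lines and 1 was higher in both. The share of all genes that kept their direction in both lines was not counted, so these numbers have no background here. The median log2 fold change of the members was -0.89 in PC3 and -0.55 in LNCaP, against -0.01 and -0.06 over all genes tested.

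**Figure D2:**
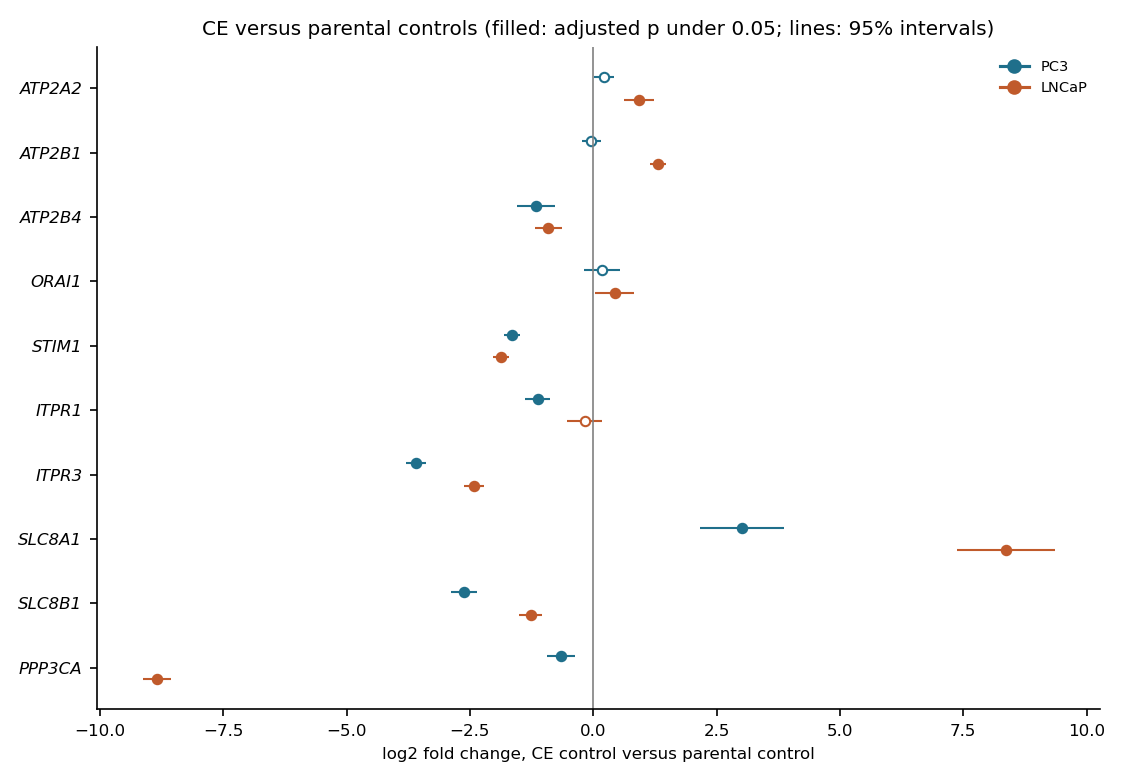
log2 fold change of CE control against parental control for the 10 genes in PC3 (blue) and LNCaP (orange). Lines are 95% intervals and filled points passed an adjusted p of 0.05 in edgeR's quasi-likelihood test. PPP3CA lies at -0.66 in PC3 and -8.85 in LNCaP, and SLC8A1 at 3.02 and 8.36.

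ATP2A2 loads calcium into the endoplasmic reticulum. Its level was 147, 140.35 and 133 TPM in the 3 PC3 parental controls and 159, 162 and 165 TPM in PC3 CE controls. The difference of 0.22 ± 0.09 in log2 fold change (SE) did not pass in edgeR (adjusted p = 0.0508), although the TPM values did not overlap, and it passed when PC3 CE Acetalax 1 was left out of the fit (0.22) or when only these 6 libraries were fitted (0.20). In LNCaP the parental controls held 153, 186 and 155 TPM and the CE controls 260.01, 246 and 259.6 TPM. On counts, ATP2A2 was 1.89-fold higher in LNCaP CE cells (log2 0.92 ± 0.14, adjusted p = 0.0001 in edgeR), and by mean TPM 1.55-fold. Every CE library lay above every parental library in TPM. Here and below, edgeR's folds and log2 fold changes come from counts and can differ from the ratio of the TPM values beside them.

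ATP2B1 and ATP2B4 are calcium pumps of the plasma membrane. ATP2B1 was 41.5, 41.7 and 34.4 TPM in PC3 parental and 37.8, 35.7 and 37.3 TPM in PC3 CE controls, overlapping groups with a log2 fold change of -0.04 ± 0.09 (95% interval -0.23 to 0.15). In LNCaP it was 20.04, 19.4 and 20.9 TPM in parental and 42.0, 43.6 and 43.2 TPM in CE controls, 2.48-fold higher (log2 1.31 ± 0.07, adjusted p = 3.16e-08). The 3 LNCaP CE libraries lay above all LNCaP parental controls and above all 6 PC3 controls. ATP2B4 was 15.0, 14.2 and 13.7 TPM in PC3 parental and 6.41, 6.99 and 7.52 TPM in PC3 CE controls (log2 -1.16 ± 0.17, adjusted p = 6.56e-05). In LNCaP it was 14.6, 13.3 and 18.4 TPM against 6.34, 6.84 and 6.81 TPM (log2 -0.91 ± 0.12, adjusted p = 4.60e-05). The CE libraries of both lines lay below all parental libraries for ATP2B4.

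STIM1, the sensor of the calcium store, fell in both lines. The PC3 parental controls held 70.5, 66.5 and 70.5 TPM and the PC3 CE controls 28.7, 26.1 and 25.9 TPM, 3.14-fold lower (log2 -1.65 ± 0.07, adjusted p = 1.80e-09). The LNCaP parental controls held 51.9, 43.7 and 49.9 TPM and the CE controls 13.6, 15.3 and 13.0 TPM, 3.65-fold lower (log2 -1.87 ± 0.07, adjusted p = 1.09e-09). No CE library reached a parental one. ORAI1, the pore that STIM1 opens, stayed within narrow limits. It was 29.2, 21.8 and 31.0 TPM in PC3 parental and 35.6, 32.6 and 33.9 TPM in PC3 CE controls, without overlap. The log2 fold change of 0.17 ± 0.17 did not pass (95% interval -0.19 to 0.53). In LNCaP ORAI1 was 21.5, 30.3 and 20.1 TPM against 31.6, 32.2 and 33.9 TPM, again without overlap. There the log2 fold change of 0.43 ± 0.18 passed narrowly (adjusted p = 0.0433). That call was lost with no low-count filter (0.43), in a fit of only the 6 libraries (0.38), and without any 1 of CE control 1, 2 or 3 or parental control 1 or 3 (0.29 to 0.46).

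ITPR1 and ITPR3 release calcium from the endoplasmic reticulum when inositol trisphosphate binds. ITPR3 was 56.9, 47.5 and 50.9 TPM in PC3 parental controls and 4.62, 4.52 and 4.31 TPM in PC3 CE controls, 12.0-fold lower (log2 -3.59 ± 0.09, adjusted p = 2.38e-11). It was 17.1, 15.0 and 20.7 TPM in LNCaP parental and 3.03, 2.82 and 3.28 TPM in LNCaP CE controls, 5.32-fold lower (log2 -2.41 ± 0.09, adjusted p = 1.04e-09). The groups were far apart in both lines. ITPR1 was 15.0, 13.8 and 12.5 TPM in PC3 parental and 6.27, 6.45 and 5.12 TPM in PC3 CE controls, 2.18-fold lower (log2 -1.13 ± 0.12, adjusted p = 3.23e-06). In LNCaP it was 5.65, 3.62 and 6.33 TPM against 3.78, 4.44 and 4.21 TPM, and these overlapped (log2 -0.18 ± 0.16, 95% interval -0.52 to 0.17). Parental control 2, which stood apart, was the lowest of these 6 libraries, and without it and Acetalax 3 the difference in ITPR1 was -0.35 and passed.

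SLC8A1 exchanges sodium for calcium across the plasma membrane and is best known from heart muscle. It had 9, 7 and 5 counts in PC3 parental controls and 71, 74 and 54 counts in PC3 CE controls, 8.09-fold higher (log2 3.02 ± 0.38, adjusted p = 1.83e-05), yet its level in PC3 CE was only 0.30 to 0.51 TPM. In LNCaP it had 13, 5 and 2 counts in parental controls and 1988, 1893 and 2099 counts in CE controls (log2 8.36 ± 0.45, adjusted p = 2.11e-08), or 13.1, 12.9 and 13.8 TPM. The gene was thus expressed at more than 10 TPM in LNCaP CE controls alone among the 4 control groups. SLC8B1 moves calcium out of mitochondria in exchange for sodium or lithium. It was 45.8, 40.7 and 45.03 TPM in PC3 parental and 7.58, 7.97 and 8.14 TPM in PC3 CE controls, 6.13-fold lower (log2 -2.62 ± 0.12, adjusted p = 2.21e-09). In LNCaP it was 11.9, 9.76 and 11.5 TPM against 4.69, 4.66 and 4.73 TPM, 2.40-fold lower (log2 -1.26 ± 0.11, adjusted p = 8.89e-07). The groups did not overlap in either line.

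PPP3CA, the calcineurin A alpha subunit, had the largest fitted fold change of the members in LNCaP CE against parental cells by counts, though its interval overlapped in size with that of SLC8A1 and by mean TPM SLC8A1 differed more (568-fold against 453-fold). The LNCaP parental controls held 321, 280.7 and 354 TPM, and the LNCaP CE controls held 0.71, 0.69 and 0.71 TPM, from 37548, 41819 and 43025 counts down to 69, 85 and 81 counts. The log2 fold change was -8.85 ± 0.13 (adjusted p = 2.85e-12), and PPP3CA ranked 917 of 19393 genes by absolute size. In PC3 it was 18.9, 22.4 and 19.5 TPM in parental and 15.9, 12.9 and 12.7 TPM in CE controls, 1.58-fold lower (log2 -0.66 ± 0.13, adjusted p = 0.000547). The groups did not overlap in PC3 either, but the difference was much smaller.

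Whether the CE change itself differed between the lines was tested as the difference of the 2 log2 fold changes over all 24 libraries, a comparison added after the data were seen. It passed for 8 of the 10 genes, where 56.8% of 21955 genes passed. The change was more positive in LNCaP for ATP2A2 (0.68 ± 0.16), ATP2B1 (1.32 ± 0.11), ITPR1 (0.92 ± 0.21), ITPR3 (1.15 ± 0.12), SLC8A1 (5.32 ± 0.72) and SLC8B1 (1.33 ± 0.16). It was more negative in LNCaP for PPP3CA (-8.21 ± 0.19) and STIM1 (-0.25 ± 0.10). The STIM1 difference did not pass with another scaling of the libraries, in DESeq2, with no low-count filter or with a replicate block (-0.25 to -0.19), nor without any 1 of LNCaP CE control 1, LNCaP parental control 1, PC3 CE control 1, 2 or 3 and PC3 parental control 1 or 2 (-0.26 to -0.21). ATP2B4 and ORAI1 did not pass, with differences of 0.22 (95% interval -0.25 to 0.69) and 0.24 (95% interval -0.28 to 0.75). Without LNCaP parental control 2 and Acetalax 3 the ORAI1 difference was 0.49 and passed.

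Paralogs of the members were compared within a library as shares of the family's summed TPM, as a description. Among the 3 inositol trisphosphate receptors, ITPR3 made up 75.7% ± 1.78 (SD, n = 3) in PC3 parental controls and 28.3% ± 1.96 in PC3 CE controls, while the family's sum went from 68.4 to 15.9 TPM. In LNCaP the ITPR3 share was 73.5% ± 2.51 and then 33.8% ± 2.20, with sums of 24.0 and 9.01 TPM. ITPR1 held the largest share in LNCaP CE controls at 46.0% ± 2.87, and ITPR1 and ITPR2 held 37.3% ± 2.67 and 34.4% ± 3.53 in PC3 CE controls. So both CE populations had a smaller pool of receptor transcripts, in which ITPR3 no longer led. Receptor protein was not measured here. STIM1 was 86.1% ± 2.07 of the STIM1 and STIM2 sum in PC3 parental controls and 48.4% ± 0.15 in PC3 CE controls. In LNCaP its share was 68.6% ± 0.98 and 40.4% ± 3.77, and STIM2, a second store sensor, exceeded it in the CE controls of both lines. ORAI1 was 44.0% ± 2.11 of the 3 ORAI transcripts in PC3 parental and 29.7% ± 1.15 in PC3 CE controls, where the sum rose from 61.9 to 114 TPM with ORAI2 at 48.9% ± 1.30. In LNCaP the ORAI1 share was 47.5% ± 12.6 in parental and 42.3% ± 1.96 in CE controls, within the parental spread. The sum there went from 50.8 to 77.15 TPM, and the ORAI2 share from 24.5% ± 2.24 to 42.3% ± 1.30.

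Of the calcineurin A transcripts, PPP3CA was 86.4% ± 1.22 in LNCaP parental controls and 1.35% ± 0.04 in LNCaP CE controls, where PPP3CB held 79.0% ± 0.85. The family's sum was 368 TPM in LNCaP parental and 52.2 TPM in LNCaP CE controls. In PC3, PPP3CB already led in parental cells at 64.7% ± 1.92 and held 63.5% ± 1.41 in CE cells, with sums of 79.8 and 73.7 TPM. The CE and PC3 groups thus shared a PPP3CB-led mixture that the LNCaP parental cells did not have. Among the plasma membrane pumps ATP2B4 was 26.7% ± 1.63 in PC3 parental and 15.9% ± 1.21 in PC3 CE controls, and 43.1% ± 3.06 and 13.4% ± 0.28 in LNCaP, and ATP2B1 made up nearly all of the rest. ATP2A2 was at least 91.2% of the SERCA transcripts in the mean of every group.

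**Figure D3:**
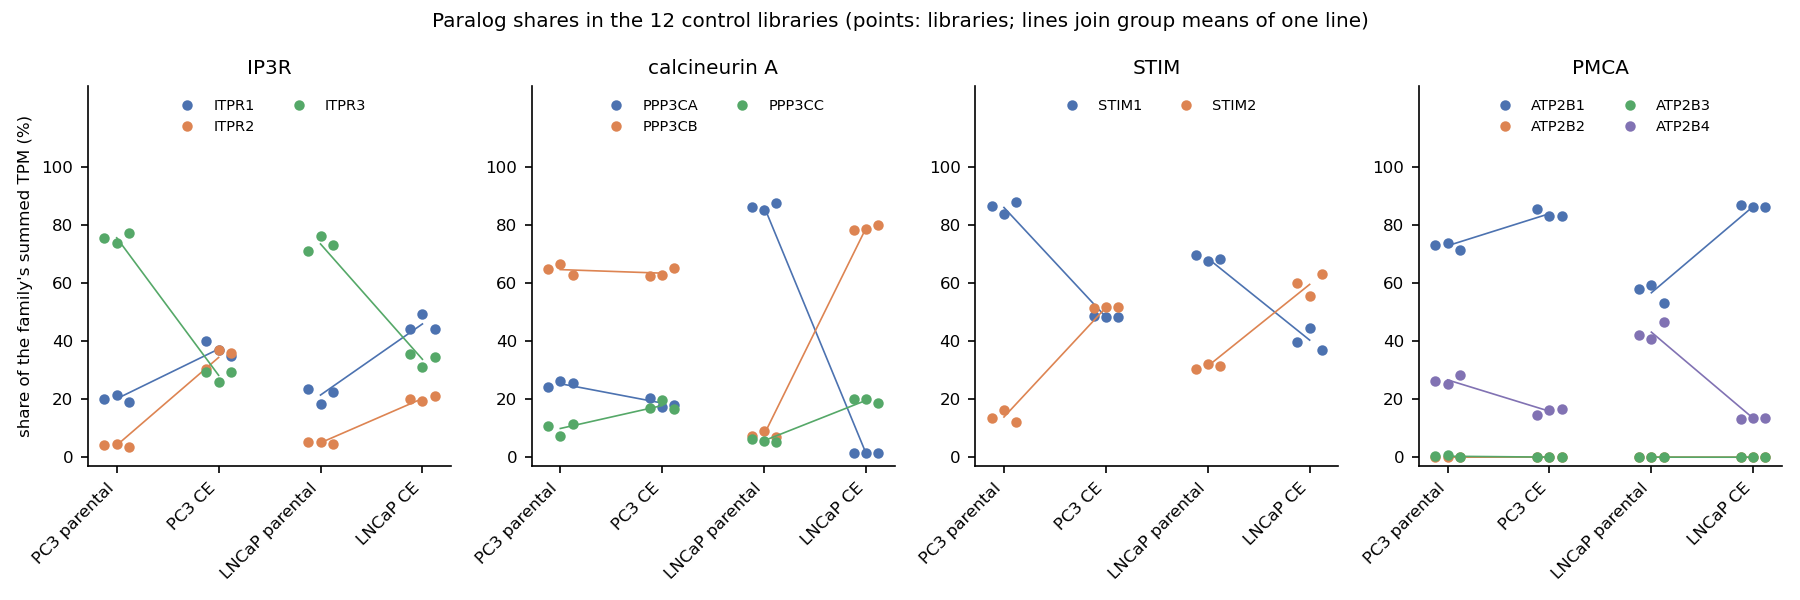
Share of each family's summed TPM, in percent, held by each paralog in the 12 control libraries. Points are libraries and lines join the parental and CE group means of 1 cell line. ITPR3 falls from above 70% to below 40% in both lines, and PPP3CA from 86.4% to 1.35% in LNCaP.

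The next comparisons, which share their control libraries with the CE comparisons, asked how the genes responded to 4 h of Acetalax. In parental PC3 cells 1 of the 10 genes passed, ITPR3, where 7.8% of 20049 genes passed. In parental LNCaP cells 0 of 10 passed in edgeR (8.45% of 19393 genes), in PC3 CE cells 0 of 10 (8.15% of 20049) and in LNCaP CE cells 0 of 10 (7.4% of 19393). At an unadjusted p under 0.05 the counts were 3 in PC3 parental, 3 in LNCaP parental, 2 in PC3 CE and 2 in LNCaP CE cells. DESeq2 called 2, 0, 1 and 2 members in the same order, and limma on log2(TPM + 1) called 0, 0, 0 and 2. The fitted differences were small in all 4 comparisons: the widest log2 fold change in either direction among the members other than SLC8A1 was 0.42.

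**Figure D4:**
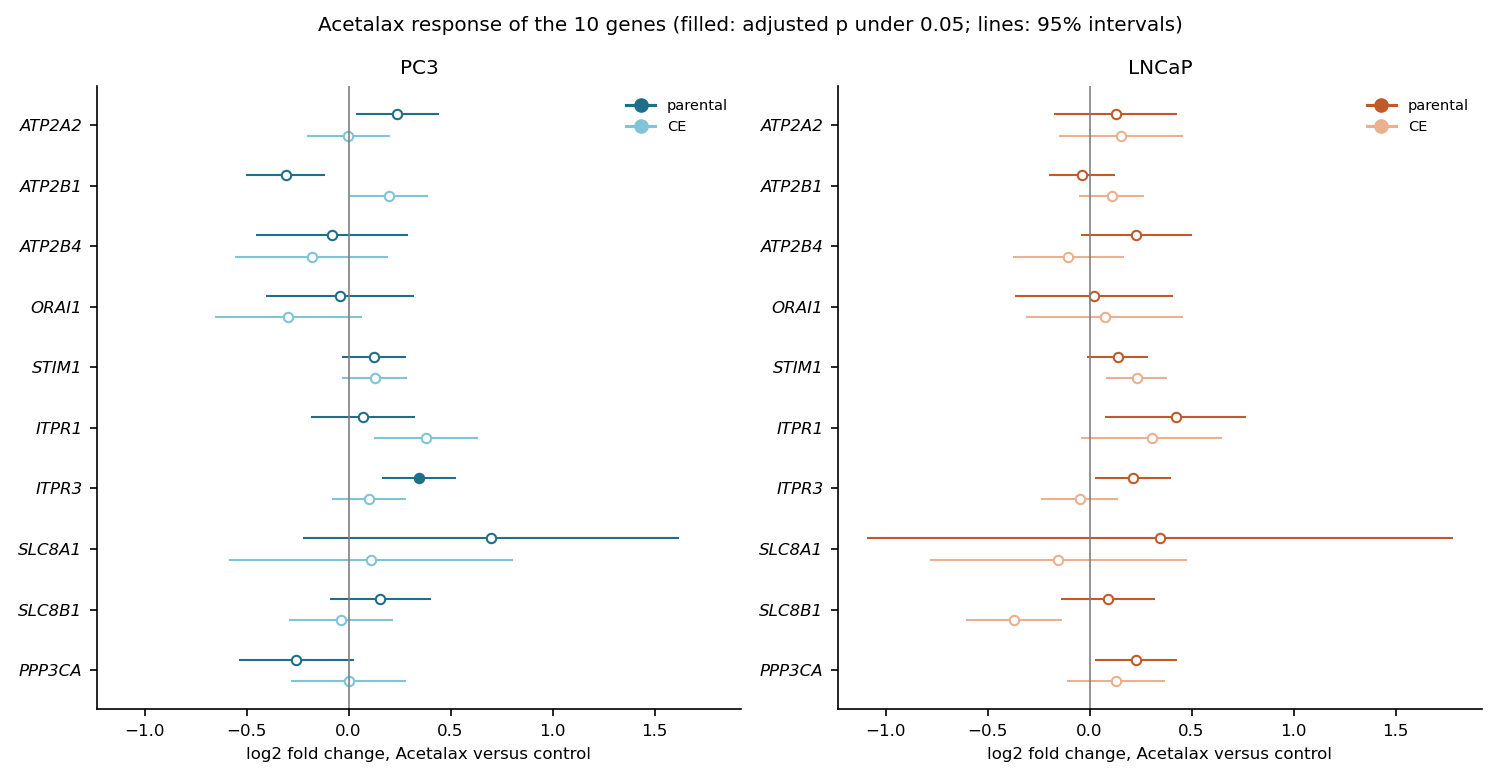
log2 fold change of Acetalax against control for the 10 genes in PC3 (left) and LNCaP (right), in parental cells (dark) and CE cells (light). Lines are 95% intervals and filled points passed an adjusted p of 0.05 in edgeR's quasi-likelihood test, which only ITPR3 in parental PC3 did, at 0.35.

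ITPR3 in parental PC3 cells was 56.9, 47.5 and 50.9 TPM in controls and 63.8, 61.7 and 67.6 TPM with Acetalax. It rose 1.27-fold (log2 0.35 ± 0.08, adjusted p = 0.0255 in edgeR), and the groups did not overlap. The call was lost with no low-count filter and in limma on TPM (0.31 to 0.34), and without any 1 of Acetalax 1, 2 or 3 or control 2 or 3 (0.29 to 0.36). Leaving PC3 CE Acetalax 1 out of the fit raised the number of members called in parental PC3 from 1 to 4, the others being ATP2A2 (0.24), ATP2B1 (-0.31) and PPP3CA (-0.26). In that fit 5590 of 20459 genes passed. ATP2A2 was 147, 140.35 and 133 TPM in controls against 175, 159.98 and 168 TPM with Acetalax, and PPP3CA was 18.9, 22.4 and 19.5 against 16.9, 16.3 and 15.9 TPM. Neither of these pairs of groups overlapped, and in the fit of all 12 PC3 libraries their adjusted p was 0.161 and 0.294 in edgeR.

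In LNCaP parental cells the TPM values of all 10 genes overlapped between control and Acetalax. Each group held a library that stood apart, which can widen its range. The share of all genes that overlapped was not counted. ITPR1 was 5.65, 3.62 and 6.33 TPM in controls and 7.77, 7.60 and 5.42 TPM with Acetalax (log2 0.42 ± 0.16, adjusted p = 0.143 in edgeR). The low control and the low treated library were the 2 that stood apart. Without them the differences in ITPR1 (0.39) and PPP3CA (0.27) passed, in a fit where 5280 of 19832 genes passed. Leaving out 1 library also gave a call: ITPR1 without control 3 (0.64) and PPP3CA without Acetalax 3 (0.31). PPP3CA was 377, 365 and 286 TPM with Acetalax in these cells. These calls rested on which of the 6 libraries were used.

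In PC3 CE cells ITPR1 was 6.27, 6.45 and 5.12 TPM in controls and 9.82, 7.04 and 9.42 TPM with Acetalax. The groups did not overlap, and the log2 fold change of 0.38 ± 0.12 did not pass in edgeR (adjusted p = 0.0695), while it passed in DESeq2 (0.38) and without Acetalax 3 (0.44). PC3 CE Acetalax 1, which stood apart, was the lowest of its group for ATP2B4 at 3.56 TPM against 6.30 and 8.32 TPM, and for ORAI1 at 18.4 TPM against 29.7 and 31.2 TPM. In LNCaP CE cells SLC8B1 was 4.69, 4.66 and 4.73 TPM in controls and 3.04, 3.42 and 3.48 TPM with Acetalax, without overlap. Its log2 fold change was -0.37 ± 0.11 (adjusted p = 0.0627 in edgeR), and it passed in DESeq2 (-0.36), in limma on TPM (-0.49 and -0.40) and without Acetalax 3 (-0.48). The 2 LNCaP parental libraries that stood apart entered that fit through the shared estimate of the spread. Without them 5 members passed on counts in LNCaP CE cells: ATP2A2 (0.16), ATP2B1 (0.12), ITPR1 (0.31), STIM1 (0.24) and SLC8B1 (-0.36). In that fit 6763 of 19832 genes passed. The rises were smaller in TPM. The ratio of mean TPM, Acetalax to control, was 1.02 for ATP2A2, 1.04 for ATP2B1, 1.08 for ITPR1 and 1.01 for STIM1. The TPM of ATP2A2, ATP2B1 and STIM1 overlapped between these groups, and that of ITPR1 did not.

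For SLC8A1 in LNCaP CE cells the answer turned on the unit and on the libraries fitted. Its TPM was 13.1, 12.9 and 13.8 in controls and 9.71, 9.00 and 8.23 with Acetalax, and limma on log2(TPM + 1) called it lower (-0.52). Its counts were 1988, 1893 and 2099 in controls and 1806, 1907 and 2012 with Acetalax, and edgeR gave -0.15 ± 0.29 on counts (adjusted p = 0.864). With only these 6 libraries fitted, the counts gave -0.16 and the gene was called lower. TPM divides by an effective length that RSEM weighs over a gene's isoforms, and counts do not. Isoform use of SLC8A1 was not analysed here.

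The response to Acetalax was also compared between CE and parental cells of each line, which shares no control libraries between the 2 arms. In PC3, 1 of 10 genes passed, ATP2B1, where 8.03% of 20049 genes passed. ATP2B1 was 41.5, 41.7 and 34.4 TPM in parental controls and 29.9, 29.5 and 34.4 TPM with Acetalax, and 37.8, 35.7 and 37.3 TPM in CE controls and 46.1, 39.5 and 40.7 TPM with Acetalax. Its response was -0.31 ± 0.09 in parental and 0.20 ± 0.09 in CE cells, neither of which passed alone in this fit. The parental response passed in DESeq2 (-0.30), with only its 6 libraries fitted (-0.30) and without CE Acetalax 1 (-0.31). Between the 2 responses the difference was 0.51 ± 0.13 (adjusted p = 0.0315 in edgeR). The difference was lost with no low-count filter, in limma and with a replicate block (0.49 to 0.51), and without any 1 of CE control 1, 2 or 3, parental Acetalax 1 or 2, or parental control 1 or 2 (0.46 to 0.51). Without CE Acetalax 1, 4 members passed: ATP2B1, ITPR3 (-0.30), SLC8B1 (-0.34) and PPP3CA (0.40). In that fit 4594 of 20459 genes passed. In LNCaP 0 of 10 passed in edgeR, where 1.28% of 19393 genes passed, with 1 at an unadjusted p under 0.05, 1 in DESeq2 and 0 in limma on log2(TPM + 1). Between the parental lines 0 of 10 passed in edgeR, where 5.05% of 21955 genes passed, with 2 at an unadjusted p under 0.05 and 0 in DESeq2 and limma. The widest of these parental differences among genes other than SLC8A1 was that of PPP3CA at 0.49 (95% interval 0.15 to 0.83, adjusted p = 0.0976 in edgeR), and it passed without PC3 CE Acetalax 1 in the fit (0.49) or without LNCaP parental Acetalax 3 (0.57).

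Comparing the untreated lines, 6 of 10 genes differed between the parental cells, where 70.3% of 21955 genes did. PPP3CA was 14.9-fold higher in LNCaP (log2 3.90 ± 0.13, adjusted p = 4.66e-16). The other 5 were lower in LNCaP: SLC8B1 by 3.99-fold (log2 -2.00 ± 0.11), ITPR3 by 2.99-fold (-1.58 ± 0.09), ITPR1 by 2.63-fold (-1.39 ± 0.15), ATP2B1 by 1.93-fold (-0.95 ± 0.08) and STIM1 by 1.45-fold (-0.54 ± 0.07). ATP2A2 differed by 0.06 ± 0.12 and did not pass in edgeR, although its TPM was higher in all 3 LNCaP libraries and limma on TPM called it (0.23 at both pseudocounts). ORAI1 differed by -0.15 ± 0.18, and by -0.41 without LNCaP parental control 2, where it passed. Between the CE populations 8 of 10 genes differed, where 41% of 21955 genes did. With only these 6 libraries fitted the same 8 members passed, but so did 13032 of 17022 genes, so the members' share is not read against the background here. SLC8A1 was 32.8-fold higher in LNCaP CE (log2 5.03 ± 0.34), ATP2A2 1.67-fold (0.74 ± 0.12) and ATP2B1 1.30-fold higher (0.38 ± 0.08). PPP3CA was 19.9-fold lower in LNCaP CE (log2 -4.32 ± 0.14), so its order between the lines was opposite to that of the parental cells. STIM1 (-0.78 ± 0.07), SLC8B1 (-0.67 ± 0.11), ITPR1 (-0.47 ± 0.15) and ITPR3 (-0.43 ± 0.09) were lower in LNCaP CE as they were in LNCaP parental cells. The ITPR1 difference was lost without LNCaP CE control 2 (-0.40) or PC3 CE control 2 (-0.42), and that of ATP2B1 in limma on TPM (0.21 and 0.22).

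The order of the groups was similar for several members. ITPR3, STIM1 and SLC8B1 all ran from PC3 parental down through LNCaP parental and PC3 CE to LNCaP CE. For ITPR3 the 4 control groups did not overlap, with means of 51.8, 17.6, 4.48 and 3.04 TPM. For STIM1 they were 69.2, 48.5, 26.9 and 14.0 TPM, and for SLC8B1 43.8, 11.1, 7.90 and 4.69 TPM, again without overlap. The control and Acetalax groups of the same cells were neighbours in each of these orders. ATP2B4 split by derivation instead, with the 4 parental group means at 13.8 to 16.5 TPM and the 4 CE means at 5.17 to 6.97 TPM, and neighbours within each set overlapped. For ORAI1 all neighbouring groups in this order overlapped, between 23.7 and 34.0 TPM. Within each line, however, its CE controls all lay above the parental controls.

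The genes whose pattern over the 24 libraries was most like the 3 most variable members were found by Pearson's r of log2(TPM + 1) among 21954 genes, as a description in which libraries of 1 group are not independent. For PPP3CA they were H2AJ (r = 0.991) and HOXB13 (0.988), and HOXB13 is itself a prostate luminal marker. For ITPR3 they were SHB (0.996) and PXDN (0.996), and for SLC8A1 PCDH15 (0.997) and PIK3C2G (0.997).

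A list of 55 other calcium-handling genes was counted in the same comparisons. In PC3 CE against parental controls 42 were tested, of which 27 were higher and 7 lower (77.5% of all genes passed), with a median log2 fold change of 0.78 against -0.01 over all genes. In LNCaP 43 were tested, of which 15 were higher and 12 lower (75.3% of all genes passed), with a median of 0.11 against -0.06. Of 40 list genes tested in both lines, 11 were higher in both, 2 were lower in both and 7 went in opposite directions. The same counts over all genes were not made. In PC3, 6 of the 7 called members were lower in CE cells, whereas 27 of the 34 called list genes were higher.

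The class counts that follow stand beside 7724 higher and 7811 lower of 20049 genes in PC3 and 6975 higher and 7620 lower of 19393 genes in LNCaP, and several are near those shares. By class, all 7 genes of mitochondrial calcium uptake were higher in PC3 CE cells, and 0 were higher and 2 lower in LNCaP CE cells. All 7 were also higher in LNCaP parental than in PC3 parental controls, where 7805 of 21955 genes were higher. The median log2 fold change of the class was 0.90 there and 0.81 in PC3 CE against parental, so the higher level was not particular to CE cells. Of 6 tested store-entry genes 5 were higher and 1 lower in PC3 CE, against 3 and 1 in LNCaP CE. Of the calcineurin subunits and regulators 4 of 7 tested were higher and 3 lower in PC3, and 3 of 8 were higher and 3 lower in LNCaP. ATP2C2, a calcium and manganese pump of the secretory pathway, went from 9552 counts over the PC3 parental controls to 10 over the CE controls (log2 -10.05 ± 0.35, adjusted p = 2.34e-10 in edgeR). In LNCaP it went from 6163 counts to 0, at least 2055-fold lower with a floor of 3 counts over the group. PLN, the phospholamban that restrains SERCA2 in muscle, went from 0 to 67 counts in PC3, at least 19.5-fold higher, but to 0.257 TPM only. The ryanodine receptor RYR2 went from 2 to 31 counts in PC3 (13.6-fold, exact 95% counting interval 3.45 to 117) and fell in LNCaP from 1259 to 8 counts (log2 -7.07 ± 0.70). Among the NFAT factors, NFATC2 fell in PC3 CE (log2 -3.65 ± 0.27) and rose in LNCaP CE (2.97 ± 0.52). NFATC1 fell in LNCaP CE (-7.73 ± 0.57) and did not pass in PC3 (-0.25 ± 0.16). SLC24A3, a potassium-dependent exchanger, went from 153 counts to 0 in LNCaP, at least 51.0-fold lower.

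TRPC1, CALM3 and STIM2 were picked by hand, after their values were seen, from the 11 list genes called higher on counts in both lines. They do not stand for the list. Of the 40 list genes tested in both lines, 2 were lower in both. Another 5 were higher in PC3 and lower in LNCaP, and 2 were lower in PC3 and higher in LNCaP. TRPC1, a cation channel tied to store entry, was 2.37 ± 0.73 TPM (SD, n = 3) in PC3 parental and 22.6 ± 1.07 TPM in PC3 CE controls, and 0.19 ± 0.10 and 11.8 ± 1.28 TPM in LNCaP. The calmodulin gene CALM3 was 69.5 ± 2.61 and 424 ± 8.38 TPM in PC3, and 247 ± 37.4 and 351 ± 5.99 TPM in LNCaP. STIM2 rose by 1.94 ± 0.08 on the log2 scale in PC3, from 11.1 ± 1.56 to 28.7 ± 1.52 TPM, while STIM1 fell there. In LNCaP its counts gave 0.76 ± 0.08, but its TPM was 22.2 ± 1.17 in parental and 20.6 ± 1.53 in CE controls, so the units differ in direction for STIM2 in that line.

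**Figure D5:**
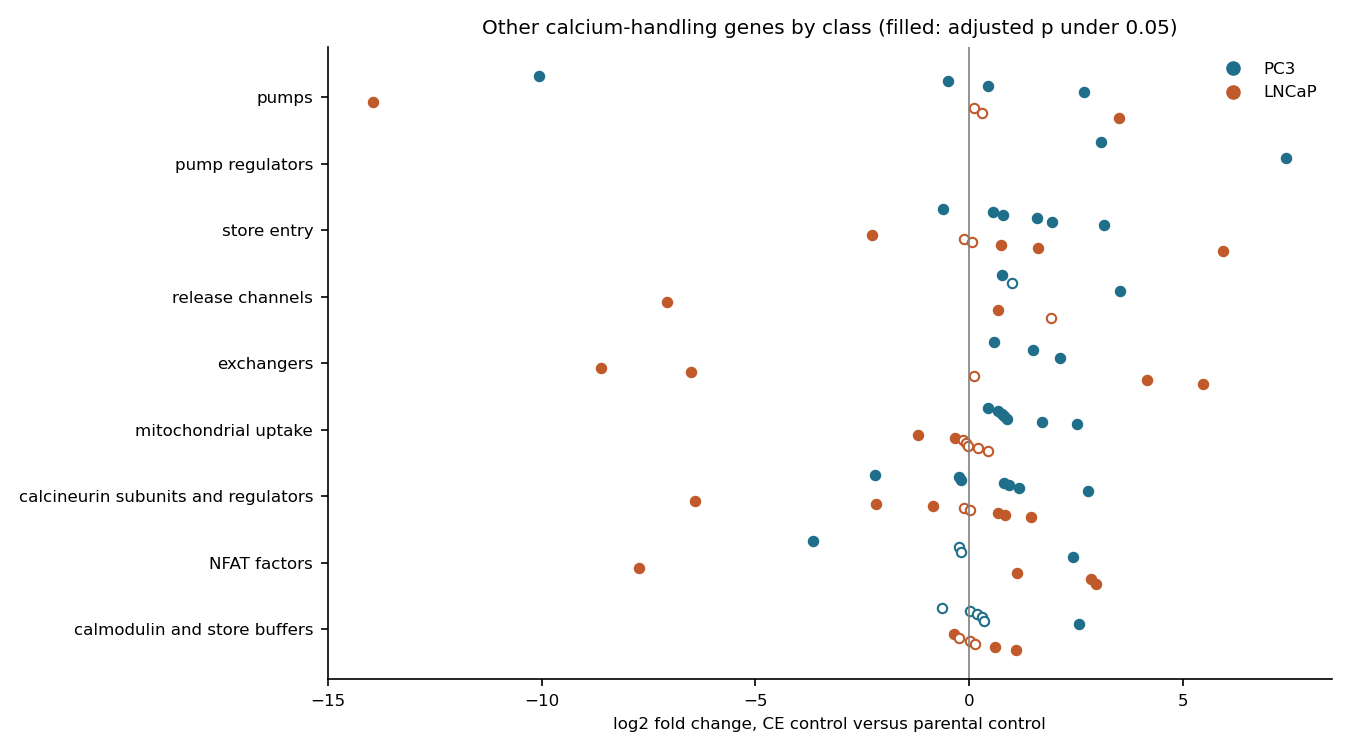
log2 fold change of CE control against parental control for the tested genes of the 55-gene list, by class, in PC3 (blue) and LNCaP (orange). Each point is a gene and filled points passed an adjusted p of 0.05 in edgeR's quasi-likelihood test. All 7 mitochondrial uptake genes lie above 0 in PC3, and ATP2C2 is far below 0 in both lines. Points of genes with 0 counts in a group are fitted values and not bounds.

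RCAN1, an inhibitor of calcineurin whose transcription NFAT can drive, did not pass in any of the 4 Acetalax comparisons in edgeR. Its log2 fold change was 0.22 ± 0.09 in PC3 parental, -0.20 ± 0.10 in LNCaP parental, -0.10 ± 0.09 in PC3 CE and -0.20 ± 0.10 in LNCaP CE cells. In PC3 it was 50.0, 52.7 and 48.9 TPM in parental controls and 10.9, 11.5 and 10.7 TPM in CE controls (log2 -2.21 ± 0.10, adjusted p = 1.48e-09). In LNCaP it was 11.1, 11.01 and 10.6 TPM in parental and 10.1, 11.1 and 10.3 TPM in CE controls (log2 0.02 ± 0.10), where PPP3CA differed by -8.85. RCAN1 thus stood near 11 TPM in every control group except PC3 parental. TRPM4 was lower in CE cells of both lines, by -1.49 ± 0.08 in PC3 and -2.60 ± 0.11 in LNCaP, and higher with Acetalax in parental PC3 cells (0.58 ± 0.08, adjusted p = 0.00196). With Acetalax it did not pass in LNCaP parental (0.08 ± 0.10), PC3 CE (-0.02 ± 0.08) or LNCaP CE cells (-0.20 ± 0.10).

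The list genes called with Acetalax were counted in the same way. In parental PC3 cells, where 7.8% of all genes passed, 1 of 42 was higher, ATP2A3, a SERCA paralog (log2 0.47 ± 0.11). In parental LNCaP cells (8.45% of all genes) 1 of 43 was higher, the calcineurin paralog PPP3CC (0.44 ± 0.09), and 1 lower, the exchanger SLC24A1 (-0.51 ± 0.13). In PC3 CE cells (8.15% of all genes) 1 of 42 was lower, AKAP5, which anchors calcineurin (-0.57 ± 0.15). In LNCaP CE cells 6 of 43 passed, where 7.4% of all genes did. Of these 2 were higher and 4 were lower, AKAP5 (-1.08 ± 0.27), SLC24A1 (-0.55 ± 0.13), ORAI2 (-0.40 ± 0.10) and NFATC3 (-0.31 ± 0.06). The list's median was between -0.02 and 0.04 in these 4 comparisons.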

How the data were processed

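Poly(A) RNA of 24 libraries was sequenced with paired reads of 100 bases after directional library preparation from 800 ng of RNA, per the labels' protocols. The authors used FastQC, STAR 2.7 and RSEM with hg38/GRCh38, per the submitters' processing notes, and deposited expected counts and TPM (length-scaled transcript abundance) for 60660 features. The sources used here give neither the parameters nor the annotation release. RSEM divides reads that map to several genes among them by estimate, so 10.2% of the deposited expected counts were not whole. RSEM also sets TPM from isoform-weighted lengths, so counts and TPM of a gene can differ in direction.

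Expected counts were rounded, which changed a library total by at most 9.6e-05%, and tested with edgeR 4.0.16 in R 4.3.3 (TMM scaling, filterByExpr with a minimum count of 10, quasi-likelihood F test, Benjamini-Hochberg adjustment over all genes tested, threshold 0.05). Comparisons within a line were fitted on its 12 libraries and those between lines on all 24. SEs come from the log2 fold change and its F statistic, and intervals are at 95%. The 24 totals of 40160832 to 57728014 counts give little precision for sparse genes, such as SLC8A1 in parental cells, with at most 18 counts a library, and the list genes PLN and RYR2 in PC3 parental controls. Exact tests of 3 libraries against 3 cannot go below p = 0.1. Replicates of a group differed by more than counting noise (ratio of chi-square to its degrees of freedom, 3.43 to 263), so each was counted. Replicate numbers were not treated as pairs: 1 of 36 same-number pairs had deviations correlated above 0.1. Genes at 0 were given bounds at 3 counts over the group, and counting intervals cover counting error only. Scripts were tested on simulated data.

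The alternatives were RLE scaling, no low-count filter, DESeq2 1.42.0, limma 3.58.1 on log2(TPM + 1) and log2(TPM + 0.1), a replicate block, only the libraries compared, and leaving out single libraries or those that stood apart. The members, the list of 55 genes and the alternatives were chosen with earlier results of these data known. Named were all members, up to 4 list genes with the largest called change per comparison, RCAN1 and TRPM4 always, and the 2 genes most correlated with each of the 3 most variable members. Outside that rule, paralogs were named in the family shares, and TRPC1, CALM3 and STIM2 were named after their values were seen. Gene positions come from GENCODE 29, which matched 58429 feature IDs, and promoter sequences from RefSeq on GRCh38.p14. In the tables, 2 columns of undetermined reads were not used. The values of 1 list gene are not reported here.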

Additional observations from a re-analysis of the deposited data

Results flagged for a closer look

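Of the members, 8 had CE changes that differed between LNCaP and PC3 by the interaction term in edgeR's fit on all 24 libraries, given as LNCaP minus PC3 on the log2 scale. For PPP3CA the difference was -8.21 and for SLC8A1 it was 5.32. For SLC8B1 it was 1.33, for ATP2B1 1.32, for ITPR3 1.15, for ITPR1 0.92 and for ATP2A2 0.68. For STIM1 it was -0.25, and that call was lost under several alternatives. The response of ATP2B1 to Acetalax differed between PC3 CE and PC3 parental cells by 0.51 in the same kind of test. Groups of 3 libraries were too small for a test of single libraries that lie far from the others.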

How the results depend on the processing

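No member's log2 fold change turned direction past a threshold: of its values under the alternatives, 1827 kept their side of the threshold, 49 gained a call and 41 lost one. The CE and line comparisons were steady in number, with 7 to 8 members called in PC3 CE against parental, 8 to 10 in LNCaP CE against parental, 6 to 7 between parental lines, 7 to 8 between CE populations and 7 to 9 for the difference in CE change.

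The Acetalax counts of members were not steady. In PC3 parental cells 1 member was called, against 2 in DESeq2, 0 with no low-count filter, 0 in limma at either pseudocount, 4 without PC3 CE Acetalax 1 and 4 with only the 6 libraries compared. In LNCaP parental cells 0 became 2 without the pair of libraries that stood apart. In PC3 CE cells 0 became 1 in DESeq2. In LNCaP CE cells 0 became 2 in DESeq2, 2 and 1 in limma at pseudocounts 1 and 0.1, 5 without the pair that stood apart and 6 with only the 6 libraries compared. For the PC3 response difference 1 became 0 with no low-count filter, 0 in limma at either pseudocount, 0 with the replicate block and 4 without PC3 CE Acetalax 1. For the LNCaP response difference 0 became 1 in DESeq2 and 2 without the pair that stood apart. For the difference between parental responses 0 became 1 without PC3 CE Acetalax 1. Leaving out single libraries gave 0 to 1 members in each of the 4 Acetalax comparisons and the parental response difference, and 0 to 4 in the PC3 response difference.

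The replicate block changed no other member count by over 1.5 times. Counts over all genes moved too: leaving out single libraries or changing the setting gave 573 to 5590 (1564 as reported) in PC3 parental, 154 to 5280 (1639) in LNCaP parental, 224 to 3358 (1633) in PC3 CE, 541 to 7884 (1436) in LNCaP CE, 758 to 4594 (1610) in the PC3 response difference, 55 to 3837 (249) in the LNCaP response difference and 691 to 2000 (1108) in the parental response difference. The causes were not tested. Depth limits SLC8A1 in parental cells.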
